A study of Mus musculus with 12 samples.

Results

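The 6 libraries described here are those of fibroblasts in which N-VEGF, with or without a nuclear localization sequence (NLS), was induced with doxycycline (dox), out of 12 libraries in the series. They were chosen by their labels alone: 3 libraries of induced NLS-N-VEGF cells and 3 of induced N-VEGF cells. The cells are NIH3T3, an established line of mouse embryo fibroblasts. Both populations were infected with a lentivirus that carries a His-tagged N-VEGF under a dox-inducible Tet promoter, and both were selected with puromycin as infected populations, not as single clones. The 2 induced groups received dox for 16 h, and the 2 uninduced groups of the same populations (0 h of dox) are used only as background. Dox, puromycin and the viral vector are therefore shared by the 2 groups compared, and what differs by design is the NLS. Each group holds library 1 and library 2 with a common label suffix, called here pairs A and B across the populations, and a library 2 with another suffix, called pair C.

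N-VEGF is the part that is cut from the N-terminal end of L-VEGF, a long form of the angiogenic growth factor VEGF-A that is translated from an upstream start codon in the Vegfa transcript. Proteins with an NLS are bound by importins in the cytoplasm, carried through the nuclear pore and released there by Ran in its GTP form. Under low oxygen the subunit HIF-1α is no longer degraded, and with its partner ARNT it binds hypoxia response elements of genes for angiogenesis, glycolysis and matrix modification, Vegfa among them. The comparison addresses which transcripts differ when N-VEGF carries a signal for the nucleus, with dox and the presence of an N-VEGF insert held equal.

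The only designed difference between the populations is visible in the forward cloning oligos of the 2 inserts, taken from the study's primer list. Both begin with an EcoRI site, a start codon and a run of histidine codons, and end in the first bases of N-VEGF. Capitals mark the 48 bases, or 16 codons, that only the NLS oligo holds, at positions 32 to 79 counted from its 5′ end.

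N-VEGF: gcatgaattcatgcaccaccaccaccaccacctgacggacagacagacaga

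NLS-N-VEGF: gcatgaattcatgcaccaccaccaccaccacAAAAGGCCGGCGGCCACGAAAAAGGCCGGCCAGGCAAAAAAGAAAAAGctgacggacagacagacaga

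The insert without the NLS was the more abundant. The construct had its own row in the count table, and its reads measure insert RNA in bulk, so that fewer expressing cells and less RNA per cell cannot be told apart. The reference of that row is named ORF_NLS and spans bases 1 to 592. Whether it holds the NLS bases is not given in the sources used here, and whether both inserts were counted equally was not tested. Induced NLS-N-VEGF cells had 48, 35 and 173 construct reads in pairs A, B and C, and induced N-VEGF cells had 121, 149 and 268. As counts per 1000000 library counts (CPM, before scaling) the NLS libraries were at 2.53 (95% Wilson interval 1.91 to 3.35), 2.58 (1.86 to 3.59) and 10.5 (9.06 to 12.2). The N-VEGF libraries were at 7.56 (6.33 to 9.04), 7.99 (6.81 to 9.39) and 18.0 (15.9 to 20.2). The interval of the NLS library lay below that of its N-VEGF partner in each of the 3 pairs, while the groups overlapped because pair C was high in both populations.

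On the log2 scale of the fit the construct differed by −1.23 ± 0.21 (SE, n = 3 per group), with an adjusted p of 0.0758 in edgeR and so outside the threshold of 0.05. Without dox the 6 libraries had 5 to 12 construct reads each, and the fitted difference was 0.23. The NLS and the lower construct level thus came together in the same cells and cannot be told apart in anything that follows. Whether reads of the insert could also align to the start of the Vegfa transcript is not given in the sources used here.

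**Figure D1:**
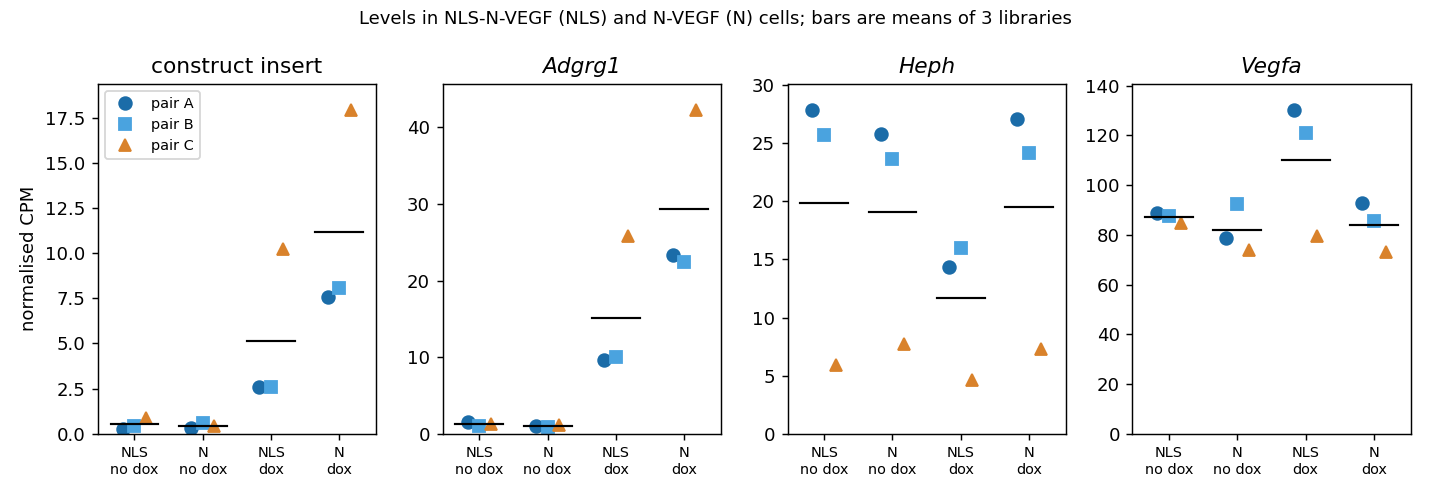
Normalised CPM (vertical axes, from 0) of the construct insert, Adgrg1, Heph and Vegfa in every library of the 4 groups (horizontal axes), with pairs A, B and C as circles, squares and triangles and group means as bars. Within each pair, the induced NLS library lies below its induced N-VEGF partner for the construct, Adgrg1 and Heph, and above it for Vegfa.

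Across the 13608 features tested, 2 genes passed the threshold between the induced populations, and both fell in NLS-N-VEGF relative to N-VEGF cells. These were Adgrg1 and Heph, which are 0.0147% of the features tested, and 0 genes (0%) passed in the higher direction. At an unadjusted p under 0.05 there were 390 features higher (2.87%) and 231 lower (1.7%). A fit without the replicate block called 0 genes, with 160 features at an unadjusted p under 0.05, and the DESeq2 Wald test with the block called 1 feature higher and 3 lower, the construct row among the latter. Without dox the same contrast of the populations called 0 genes in edgeR and in DESeq2, with 499 and 266 features at an unadjusted p under 0.05.

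Adgrg1 (ENSMUSG00000031785, GRCm38 chr8:94974751-95014217) encodes an adhesion G protein-coupled receptor, also called GPR56, that binds matrix ligands. It was at 9.59, 10.01 and 25.8 normalised CPM in induced NLS-N-VEGF cells and at 23.3, 22.4 and 42.3 in induced N-VEGF cells. The NLS library was the lower one in each pair, and the groups overlapped only through pair C. The fitted difference was −1.01 ± 0.15 on the log2 scale (SE, n = 3 per group, adjusted p = 0.0309).

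Adgrg1 was near 1 CPM in all uninduced libraries, between 1.01 and 1.495 in NLS-N-VEGF cells and between 0.863 and 1.17 in N-VEGF cells. The order of the 6 induced libraries by Adgrg1 was nearly their order by construct. Divided by the construct's CPM, Adgrg1 was 3.73, 3.89 and 2.51 in NLS-N-VEGF cells and 3.08, 2.77 and 2.36 in N-VEGF cells. These ranges overlapped through pair C, and the NLS library had the higher ratio in each pair. The part of the construct level in the Adgrg1 difference was not tested.

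The 250 bases before the first of the 2 Adgrg1 start sites in RefSeq (GRCm38.p6, chr8:94976859-94977108, plus strand) are shown because this gene had the largest called difference. Capitals mark the hypoxia response element core, searched as ACGTG or GCGTG on both strands, which occurs 1 time here and 0 times before the other start site.

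Adgrg1 upstream: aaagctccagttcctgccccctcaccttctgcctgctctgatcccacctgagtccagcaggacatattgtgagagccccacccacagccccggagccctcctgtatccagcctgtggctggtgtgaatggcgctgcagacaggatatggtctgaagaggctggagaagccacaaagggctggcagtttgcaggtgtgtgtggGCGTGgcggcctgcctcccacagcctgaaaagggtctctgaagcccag

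Such a core lay upstream of at least 1 listed start of 61.2% of the 9870 tested genes that have an entry, so its presence is common.

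Heph (ENSMUSG00000031209, GRCm38 chrX:96455359-96574485) encodes hephaestin, a copper-containing ferroxidase that works with ferroportin in iron export. It was at 14.4, 15.97 and 4.62 normalised CPM in induced NLS-N-VEGF cells and at 27.1, 24.1 and 7.30 in induced N-VEGF cells. Pair C was low in both populations, and within every pair the NLS library was the lower one. The fitted log2 difference was −0.74 ± 0.11 (SE, n = 3 per group, edgeR adjusted p = 0.0417).

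Without dox, Heph was at 27.9, 25.7 and 5.93 CPM in NLS-N-VEGF cells and at 25.8, 23.6 and 7.75 in N-VEGF cells, a fitted log2 difference of 0.01. The induced difference therefore stood against near-equal uninduced levels, although the difference of the 2 contrasts, −0.75 on the log2 scale for Heph and −1.39 for Adgrg1, missed the threshold across all features (adjusted p = 1 for both in edgeR). Both calls held with the label suffix in place of the block and were lost without the block. They were also lost in 7 of 12 fits that left out 1 library, namely any induced library other than that of NLS-N-VEGF in pair C, or the uninduced library of pair B of either population, with adjusted p from 0.0533 to 0.933 for Adgrg1 in these 7 fits.

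**Figure D2:**
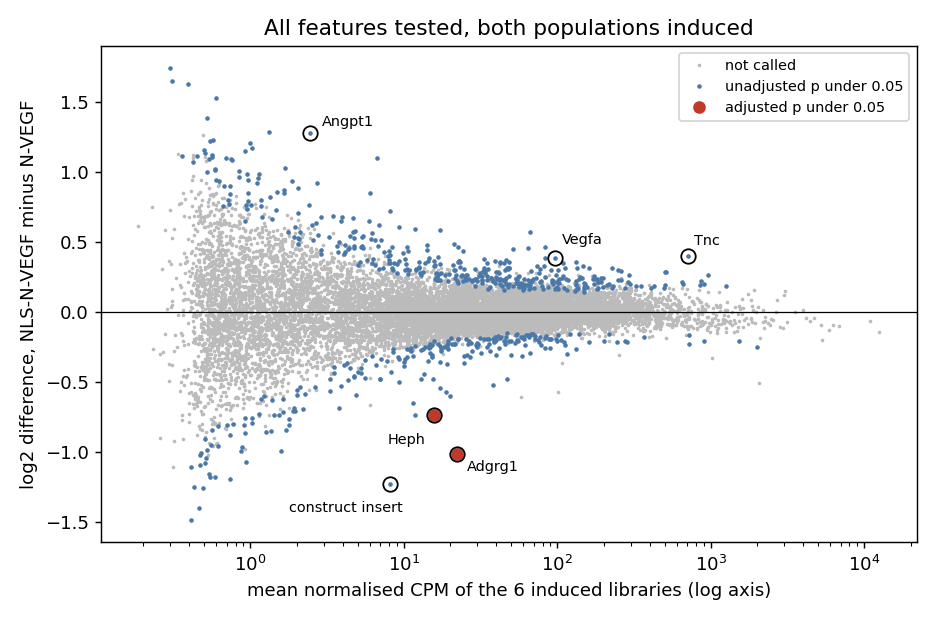
The log2 difference between the induced populations (vertical axis) against the mean normalised CPM of the 6 induced libraries (horizontal log axis) for 13608 features, with blue points at an unadjusted p under 0.05 and red points at an adjusted p under 0.05. Only Adgrg1 and Heph are red, both below 0, and the construct insert lies below them at −1.23.

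Of the genes above 0, no gene passed the adjusted threshold, and the 10 with the smallest p and one sign in all pairs were Angpt1, Lama4, Tnc, Thy1, Inhba, Cxcl12, Thbs1, Adamts2, Cmah and Raph1. Angpt1, the angiopoietin ligand of the endothelial receptor Tie2, was at 3.27, 3.90 and 3.20 normalised CPM in induced NLS-N-VEGF cells and at 1.12, 1.84 and 1.27 in induced N-VEGF cells. These groups did not overlap, as for 2.99% of all features in this direction. Its log2 difference was 1.28 ± 0.26 (adjusted p = 0.311). Exons of antisense genes cover 14.2% of its exonic sequence, which the counting could not separate if it did not use strand. Smaller shares are covered in other named genes, among them Hmgcs1 (12.1%), Idi1 (9.22%) and Hif1a (5.6%), which are described below.

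Tnc, the matrix glycoprotein tenascin-C, was at 811.8, 814.9 and 774.9 CPM in induced NLS-N-VEGF cells. In induced N-VEGF cells it was at 670.4, 659.0 and 501.7 CPM, again without overlap. Its log2 difference was 0.40 ± 0.09 with an edgeR adjusted p of 0.597, and it passed in the DESeq2 fit with the block. Without dox Tnc was at 919.0, 845.1 and 847.5 CPM against 714.9, 806.9 and 729.9, so that the same order was present before induction.

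Inhba, the activin A subunit, was at 101.3, 97.8 and 88.4 CPM against 65.4, 74.0 and 69.5, which also did not overlap. Cxcl12, a chemokine that attracts cells through CXCR4, was at 9.75, 7.36 and 7.99 CPM against 6.44, 5.64 and 4.35. The log2 difference of Cxcl12 was 0.62 with dox and 0.30 without it. Thbs1, the matrix protein thrombospondin-1, was at 44.8, 44.2 and 138.9 CPM against 25.1, 26.6 and 118.3, with pair C far above the others in both populations. Without dox Thbs1 was at 46.7, 41.5 and 119.7 against 27.4, 27.7 and 130.5 CPM, with the NLS library above its partner in pairs A and B and below it in pair C.

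The remaining genes above 0 had log2 differences between 0.31 and 0.61. Lama4, a laminin chain of vascular basement membranes, was at 6.16, 6.85 and 20.7 CPM against 4.25, 4.12 and 13.9. Adamts2, which removes the N-propeptide of procollagens, was at 12.5, 11.2 and 19.1 CPM against 9.37, 8.95 and 9.84, and its uninduced log2 difference of 0.52 was close to its induced one of 0.59. Thy1, a surface glycoprotein of fibroblasts, was at 165.2, 151.8 and 213.8 CPM against 124.4, 120.8 and 186.2. Cmah, an enzyme of sialic acid modification, and Raph1, an actin regulator of lamellipodia, did not overlap between the groups.

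Below 0, the named genes besides Adgrg1 and Heph were Serpinb5, Gsta4, Ramp3, Id3, Etl4, Tlr2, 9130019O22Rik and Mllt3, and none of these 8 passed the threshold. Serpinb5, the serpin family member maspin, was at 7.28, 7.95 and 11.5 CPM in induced NLS-N-VEGF cells and at 11.7, 14.1 and 15.7 in induced N-VEGF cells. These groups did not overlap, as for 3.5% of all features in the lower direction, and the log2 difference was −0.65 ± 0.13 (edgeR adjusted p = 0.311). Without dox it had the other sign, at 0.21.

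Ramp3, a partner protein of the calcitonin receptor-like receptor for adrenomedullin, was at 30.2, 28.4 and 34.9 CPM against 41.7, 41.8 and 51.1, with no overlap. Id3, an inhibitor of basic helix-loop-helix factors, was at 35.9, 35.6 and 46.0 CPM against 48.1, 45.4 and 72.0. Tlr2, a receptor for bacterial lipopeptides, was at 17.7 and 15.9 against 30.5 and 24.6 CPM in pairs A and B and at 7.22 against 7.37 CPM in pair C. Pairs A and B, which have the common suffix, thus carried nearly all of the Tlr2 difference.

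Etl4 resembled Adgrg1 in that both populations were low without dox, at 4.31, 4.27 and 5.57 CPM in NLS-N-VEGF cells and 3.77, 3.51 and 5.42 in N-VEGF cells. With dox it was at 9.64, 10.7 and 18.5 CPM against 15.5, 15.9 and 21.8. The NLS library was the lower one in every pair, and pair C was the highest in both populations, as it was for the construct. Its log2 difference was −0.48 ± 0.12 (edgeR adjusted p = 0.619).

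**Figure D3:**
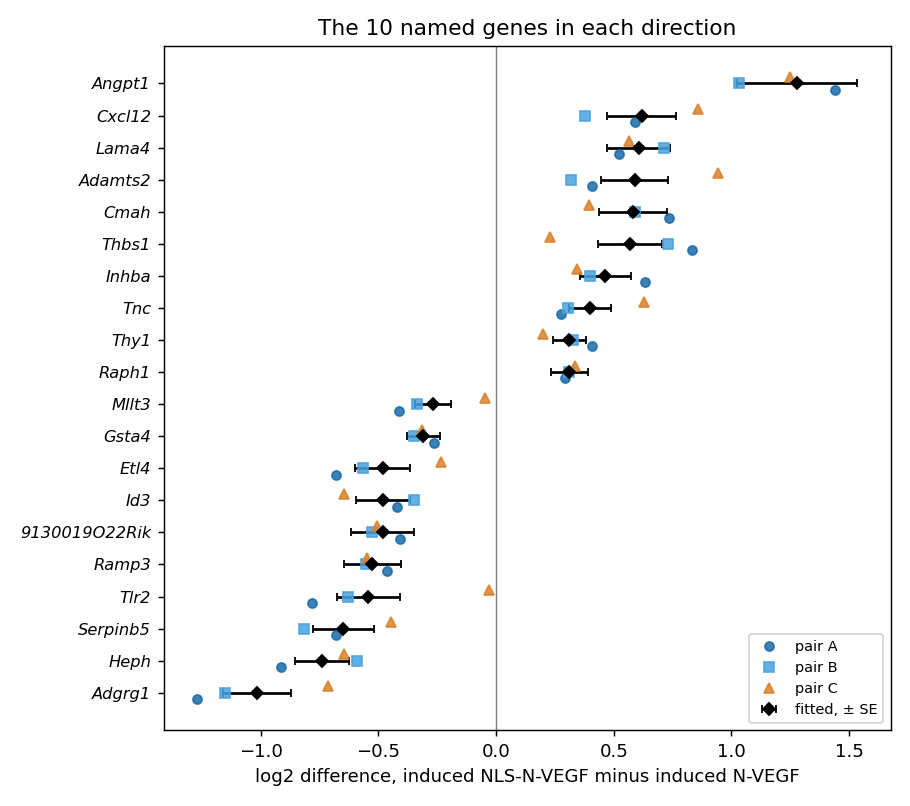
Log2 differences (horizontal axis) of the 10 named genes in each direction (rows), as single pairs A, B and C (circles, squares, triangles) and as fitted values with SE (black diamonds). Every pair of every gene lies on 1 side of 0, which the choice of genes required, and Tlr2 and Mllt3 come closest to 0 in pair C.

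Of the VEGF ligands and receptors, 7 of 10 could be tested and none passed the threshold. Of these, 5 lay above 0 and 2 below, with a median of 0.07 and an uninduced median of −0.08. Vegfa itself (GRCm38 chr17:46016993-46032369) was at 130.4, 120.9 and 79.6 CPM in induced NLS-N-VEGF cells and at 92.7, 85.6 and 73.3 in induced N-VEGF cells. The NLS library was the higher one in each pair, by 0.49, 0.50 and 0.12 on the log2 scale, and the groups overlapped through pair C. The fitted log2 difference of Vegfa was 0.38 ± 0.10 (edgeR adjusted p = 0.862), against 0.09 without dox. It passed at 0.53 (edgeR adjusted p = 0.033) when the induced NLS-N-VEGF library of pair C was left out and with no filter beyond 1 count (adjusted p = 0.0111), and its adjusted p ranged up to 1 in other alternatives. Flt1, the VEGF receptor 1, had a log2 difference of 0.47 at means of 2.71 and 1.97 CPM, and Vegfd, a ligand of the lymphatic receptor, had −0.24. Nrp1 and Nrp2, which are co-receptors, had 0.07 and −0.01.

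Among 8 tested HIF subunits and oxygen sensors none passed. Hif1a was at 241.0, 221.0 and 154.9 CPM against 201.2, 203.4 and 129.6, and its log2 difference was 0.21 ± 0.08 (edgeR adjusted p = 0.992). Its partner Arnt had a log2 difference of −0.04, the prolyl hydroxylases Egln1 and Egln2, which mark HIF-1α for degradation, had 0.00 and −0.10, and Vhl, which ubiquitinates it, had −0.13. The median of the 8 genes was −0.02 and that of all features tested was 0.00.

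Of 29 HIF targets outside glycolysis that were tested, 25 had a positive log2 difference, 4 of them at an unadjusted p under 0.05 and none at an adjusted one. Over all 13608 features 6818 were positive and 2.87% were higher at that p. The median of the 29 was 0.10 with dox and 0.05 without it. The medians in pairs A, B and C were 0.05, 0.08 and 0.16. Besides Vegfa, the smallest p-values belonged to Plod2, a lysyl hydroxylase of collagen, at 84.0, 75.8 and 62.0 CPM against 63.1, 69.1 and 49.6, and to Adm, the vasodilator adrenomedullin, at 11.998, 8.98 and 13.2 against 8.50, 10.04 and 7.90. Adm was lower in the NLS library of pair B, so that its direction was not the same in all pairs. Its log2 difference was 0.38 with dox and 0.42 without it, so that it was there before induction. The 29 genes summed to 2844, 2691 and 2776 CPM in induced NLS-N-VEGF cells and to 2688, 2692 and 2179 in induced N-VEGF cells, which are nearly equal in pair B.

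All 20 of these HIF targets that have a RefSeq promoter entry held the response element core upstream of at least 1 listed start. The share was 61.2% of tested genes and 63.2% of 19 genes of cholesterol and fatty acid synthesis, a list described below. The HIF list was made of known HIF targets, so its high share is no result of this comparison. Of 19 glycolytic genes tested, 12 lay above 0, beside 6818 of 13608 features, with a median of 0.02. Beside 2.87% of all features, 1 of the 19 was higher at an unadjusted p under 0.05. This was Pdk1, which restrains the entry of pyruvate into mitochondria, at 70.4, 60.4 and 40.8 CPM against 66.0, 58.0 and 27.1, so that most of its difference was in pair C.

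Of 23 tested import receptors and Ran cycle genes, which carry an NLS into the nucleus, none passed, 14 lay above 0 and the median was 0.02. Kpnb1, the importin β that carries classical NLS cargo with importin α, was at 893.3 CPM on average in induced NLS-N-VEGF cells and at 869.1 in induced N-VEGF cells. Tnpo1, which imports cargo with a proline-tyrosine signal, was the 1 gene at an unadjusted p under 0.05, beside 2.87% of all features in the higher direction. It was at 351.0, 379.2 and 304.1 CPM against 302.1, 344.3 and 265.6. All 23 log2 differences lay between −0.08 and 0.18.

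Genes of cholesterol and fatty acid synthesis lay nearly all above 0. Of 28 tested, 27 lay above 0, 8 of them at an unadjusted p under 0.05 and none at an adjusted one, and 7 had NLS libraries that were all above the N-VEGF libraries. Over all 13608 features, 6818 lay above 0, 2.87% were higher at an unadjusted p under 0.05 and 2.99% had all NLS libraries above. The median log2 difference was 0.15, and 0.11, 0.11 and 0.25 in pairs A, B and C. Hmgcs1, which makes HMG-CoA for the mevalonate pathway, was at 297.7, 298.5 and 220.4 CPM against 238.2, 257.3 and 171.2. Idi1, which isomerises isopentenyl pyrophosphate, was at 298.1, 284.4 and 268.2 CPM against 225.3, 246.5 and 225.1, and Cyp51, the lanosterol demethylase, at 355.6, 348.2 and 252.6 against 292.0, 295.4 and 209.1.

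The regulator Srebf2, which activates the sterol genes, had a log2 difference of 0.10, and Srebf1, which acts more on fatty acid genes, was the 1 member below 0, at −0.07. Summed over the 28 genes, induced NLS-N-VEGF cells were at 8722, 8797 and 7847 CPM and induced N-VEGF cells at 8060, 8107 and 6578, the NLS library being higher in every pair. Without dox the sums were 7654, 7645 and 7709 against 8882, 8196 and 7393, and the median log2 difference was −0.07. The NLS library was the lower one in pairs A and B and the higher one in pair C. The uninduced N-VEGF library of pair A, at 8882, stood apart in other respects, with 19976 genes detected against 21475 to 22889 in the other uninduced libraries. Without that library the uninduced median was −0.04 and 23 of the 28 genes lay below 0, against 19 with it. The difference of the 2 contrasts had a median of 0.23 with 0 of all features past its adjusted threshold.

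Ribosomal protein genes lay below 0 by a small amount. All 80 tested cytosolic ribosomal protein genes had a log2 difference below 0, between −0.21 and −0.0013, with a median of −0.09. Of these, 1 (Rpl17) had an unadjusted p under 0.05 and none an adjusted one. In 10 of them all NLS libraries were below the N-VEGF libraries. Over all 13608 features, 6788 lay below 0, 1.7% were lower at an unadjusted p under 0.05 and 3.5% had all NLS libraries below. In pairs A, B and C the medians were −0.01, −0.10 and −0.15. Their sums were 72200, 66690 and 63660 CPM in induced NLS-N-VEGF cells and 72350, 72160 and 70370 in induced N-VEGF cells, so that pair A was nearly equal. Without dox the median was −0.06, and 0.02 when the uninduced N-VEGF library of pair A was left out, which had a ribosomal protein sum of 84760 CPM against 66920 to 72420 in the other uninduced libraries. The difference of the 2 contrasts had a median of −0.02.

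The log2 differences ran with annotated exon length in pairs B and C and not in pair A. This length counts all annotated exon bases of a gene once, and can exceed that of any single transcript. Among features other than ribosomal proteins, the 1237 with less than 1500 annotated exon bases had a median log2 difference of −0.04, and the 4095 with 6000 or more had 0.03. In pair C these medians were −0.10 and 0.08, in pair B −0.04 and 0.04, and in pair A 0.0028 and −0.02. The ribosomal protein genes had a median of 1776 exon bases and the sterol and fatty acid genes 5086. The part of length in either list was not tested.

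**Figure D4:**
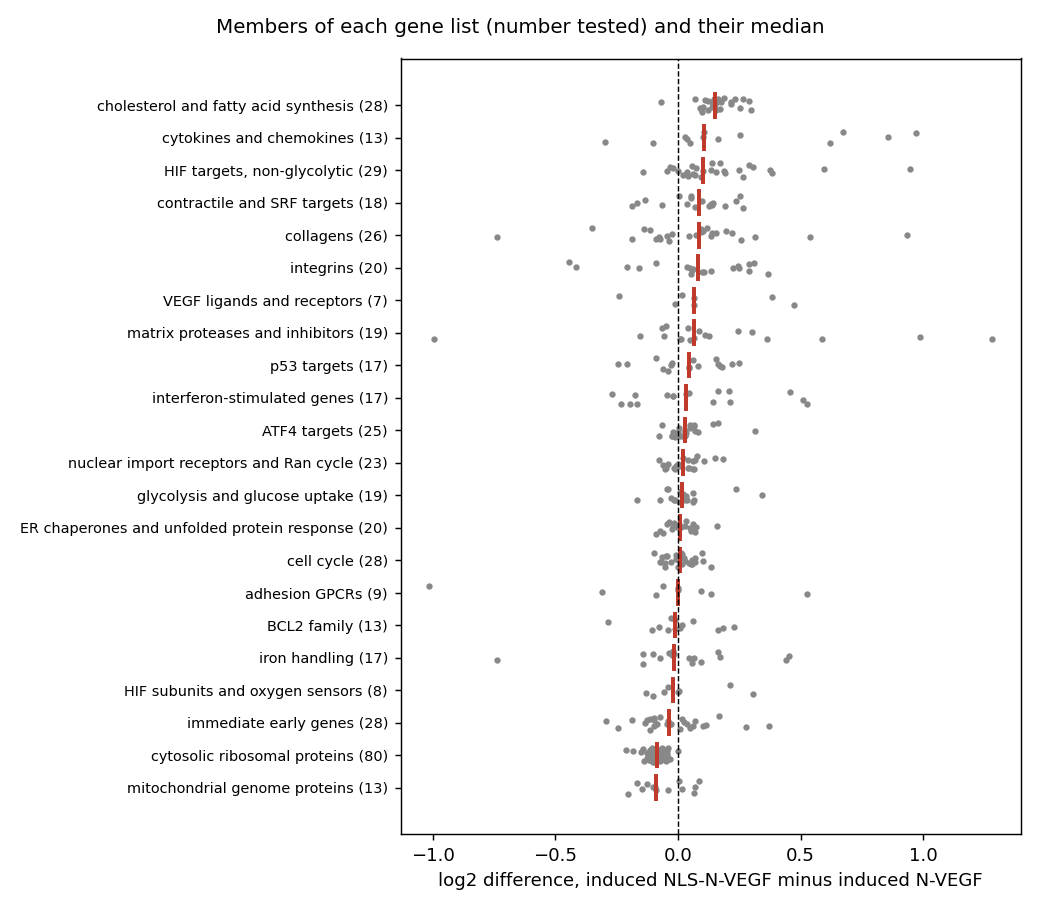
Log2 differences between the induced populations (horizontal axis) of the tested members of each gene list with at least 7 tested members, other than cell type markers and the study's own lists (grey points, rows with the number tested), with list medians as red bars and the median of all features as a dashed line. Of the lists drawn, sterol and fatty acid genes lie at the top with a median of 0.15, and ribosomal protein genes form a tight group with a median of −0.09.

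Genes for the matrix and for adhesion had single members at an unadjusted p under 0.05 and none past the adjusted threshold, with Adgrg1, an adhesion receptor, given above. Of 20 integrins tested, 15 lay above 0 with a median of 0.08, and Itgav, Itgb3 and Itgb8, subunits of receptors for RGD-containing matrix proteins, had an unadjusted p under 0.05. Over all 13608 features, 6818 lay above 0 and 2.87% were higher at that p. Itgav was at 222.4, 223.8 and 180.7 CPM against 197.4, 192.4 and 141.0, and Itgb3 at 28.8, 28.9 and 19.6 against 23.6, 22.7 and 13.9. The NLS library was the higher one in each pair for all 3 genes.

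Of 26 collagen genes 15 lay above 0, with a median of 0.08 but medians of −0.13, −0.02 and 0.28 in the single pairs, so that the pairs did not share a direction. Of 19 matrix proteases and inhibitors, 5 had an unadjusted p under 0.05 in the higher direction and 1 in the lower, beside 2.87% and 1.7% of all features. Adamts5, an aggrecanase, was at 17.9, 16.5 and 14.1 CPM against 14.1, 14.0 and 9.71. Mmp3, or stromelysin-1, was at 2.09, 2.43 and 1.12 CPM against 0.50, 0.651 and 1.14, which is a difference in pairs A and B only. Mmp9, a gelatinase, was at 1.12, 0.736 and 1.24 CPM against 2.75, 2.01 and 1.67, without overlap.

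Iron handling and adhesion G protein-coupled receptors, the lists of the 2 called genes, had medians near 0. Of 17 iron genes tested, 8 lay above 0 and 9 below, with a median of −0.01. Ceruloplasmin (Cp), the ferroxidase related to hephaestin, lay opposite to Heph at 74.7, 75.2 and 71.9 CPM against 65.3, 63.0 and 36.4 (log2 difference 0.45 ± 0.12, edgeR adjusted p = 0.698). Pair C carried much of the Cp difference, which was 0.22 with pairs A and B alone and 0.25 without the induced N-VEGF library of pair C. With no filter beyond 1 count it passed (adjusted p = 0.00072), and its adjusted p ranged up to 1 in other alternatives. Ferroportin (Slc40a1), the iron exporter, was at 3.803, 3.39 and 2.84 CPM against 2.81, 2.33 and 2.21. The ferritin and transferrin receptor genes Fth1 and Tfrc had log2 differences of −0.14 and 0.17.

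Of 9 adhesion receptors tested, 4 lay below 0 and the median was 0.0007, with Adgrg1 alone past the threshold. Adgrb2, a brain angiogenesis inhibitor family receptor, was at 5.52, 5.15 and 6.10 CPM against 4.62, 3.36 and 3.68, above 0 and without overlap.

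The stress and growth lists had medians near that of all features. For 20 endoplasmic reticulum chaperones the median log2 difference was 0.01 and none had an unadjusted p under 0.05. For 25 ATF4 targets it was 0.03, with Trib3, a pseudokinase induced by this factor, at 52.9, 40.4 and 18.3 CPM against 37.3, 33.5 and 16.9. For 28 cell cycle genes it was 0.01 with 14 on each side, and for 17 p53 targets 0.05, with Mdm2, the ubiquitin ligase of p53, below 0 at 187.6, 207.5 and 163.9 CPM against 236.3, 232.9 and 178.1. For 13 BCL2 family genes it was −0.01, with the pro-apoptotic Bcl2l11 at 21.1, 20.8 and 13.8 CPM against 19.1, 19.4 and 9.64. The log2 difference of Bcl2l11 was 0.23 with dox and 0.19 without it.

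Immediate early genes numbered 28 with a median of −0.04. Nr4a1 and Fosb were the 2 with an unadjusted p under 0.05, both higher, beside 2.87% of all features in that direction. The log2 difference of Nr4a1 was 0.28 with dox and 0.31 without it. The 18 contractile and SRF target genes had a median of 0.08, but −0.09 in pair C. The 13 cytokines and chemokines had 0.11, with pair medians of 0.06, 0.01 and 0.62 and an uninduced median of 0.18, and 17 interferon-stimulated genes had 0.03. The 13 protein-coding genes of the mitochondrial genome had −0.09 with pair medians of 0.19, −0.28 and −0.11, which do not share a direction.

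The study lists 123 genes as higher and 32 as lower in dox-treated NLS-N-VEGF cells, by at least 2-fold at an adjusted p under 0.05. It set aside genes that changed in these cells without dox or in dox-treated N-VEGF cells. The contrast of the 2 induced populations used here is therefore another measure than the study's. It chose them on these libraries, so their direction here is no independent evidence. All were tested. Of the 123, 83 had a positive log2 difference between the induced populations and 40 a negative one, with a median of 0.11, and the 2 that passed, Adgrg1 and Heph, were negative. Mean Adgrg1 without and with dox was 1.26 and 15.1 CPM in NLS-N-VEGF cells and 1.01 and 29.3 in N-VEGF cells, so it was higher with dox in both populations. For Heph these means were 19.8 and 11.6 CPM in NLS-N-VEGF cells and 19.1 and 19.5 in N-VEGF cells. Of the 32, 22 were positive and 10 negative, with a median of 0.11. At an unadjusted p under 0.05 the 123 held 39 positive and 14 negative genes, and the 32 held 10 positive and 2 negative, beside 2.87% and 1.7% of all features. Sh3rf1, a scaffold of JNK signalling on the first list, was at 34.9, 35.4 and 24.8 CPM against 40.9, 42.2 and 29.6. Acat2, a thiolase of sterol synthesis on the second, was at 209.7, 201.1 and 185.2 CPM against 169.7, 175.2 and 167.8.

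Libraries differed by label suffix more than by construct. The first principal component of the 6 induced libraries held 64.8% of the variance, with the 2 libraries of pair C at 21.6 and 27.6 and the other 4 between −14.8 and −8.8. The total counts of the induced libraries lay between 13549331 and 18982127, with a mitochondrially encoded share of 4.9995% to 6.17%. Across 12059 features the log2 ratios of single pairs correlated at 0.27 between A and B, −0.09 between A and C and 0.06 between B and C, as a description over features that share a library's depth and composition. With libraries of pair C left out, 13 features were called, the construct row among them, instead of 2. Fibroblast markers were abundant, at a sum of 11250 to 13500 CPM in induced NLS-N-VEGF and 11400 to 12390 in induced N-VEGF libraries over 10 genes, while Lum among them had 0 to 23 reads. Of the markers of other cell types, the 6 endothelial genes summed to 4.07 to 5.02 CPM against 2.90 to 4.31, the 6 epithelial genes to 1.26 to 1.84 against 1.21 to 1.44, and the 6 leukocyte genes to 8.93 to 11.6 against 9.81 to 11.7. The 4 adipocyte genes reached at most 1.21 CPM and the 4 muscle genes at most 1.61, and Epcam, Krt19, Adgre1, Myod1 and Myog had 0 reads in all 6.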

How the data were processed

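RNA sequencing measured gene expression in 12 libraries, 3 for each combination of population and dox. From TruSeq libraries the authors obtained single-end reads, which after Trim Galore were mapped to GRCm38 by TopHat2 2.1.0 on Bowtie2 2.2.6, with gene counts from HTSeq 0.6.1. The deposited values are raw counts, and the strand option of the counting is not given in the sources used here. The methods state DESeq2 for normalisation and the Wald test and do not name a replicate term.

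Counts of all 12 libraries were fitted with edgeR 4.0.16 in R 4.3.3 as 1 mean per group plus the replicate label as a block of 3, after filterByExpr (13608 of 54447 features) and TMM scaling. Contrasts were tested two-sided with the quasi-likelihood F test, with Benjamini-Hochberg adjustment over all 13608 features and a threshold of 0.05. Adjusted p-values are from edgeR unless DESeq2 is named. SE was taken from the F statistic. Single-pair ratios used a prior count of 2. Totals per library lay between 13549331 and 18982127 counts, so that 3 reads, taken as the floor, are 0.158 to 0.221 CPM. Reads had no molecular identifiers, and intervals and floors cover counting error only. Nothing in the labels says that libraries came from separate cultures, so p-values measure the spread between these libraries.

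The pairing comes from the number and suffix in the labels. Departures from each group's mean, compared between same-labelled induced libraries, correlated at 0.43, 0.48 and 0.71 over 12058 genes, so the labels were taken to pair the libraries. Libraries of pairs A and B correlated across numbers at 0.49 and 0.41 as well, and the difference between them correlated at 0.0047 between populations, so the shared part follows the suffix. The meaning of the suffix is not stated. Replicates of a group differed by more than sampling noise, with a chi-square per degree of freedom from 3.00 to 34.8 among induced libraries.

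Named genes were the construct, Vegfa, Hif1a, Adgrg1 and Heph, then the 10 with the smallest p in each direction with at least 1 CPM and one sign in all pairs, then up to 3 per list and direction at an unadjusted p under 0.05. Other genes named were chosen after their values were seen. The members and lists were chosen with earlier results of these data known. The study's lists of 123 and 32 genes were used as names only. Gene coordinates are 1-based in GRCm38, exon overlaps and lengths come from GENCODE M21 (54409 of 54447 features matched) and promoter sequences from RefSeq. Alternatives were no block, the suffix as a term, DESeq2 1.42.0 with and without the block, RLE scaling, other filters, the induced libraries alone, pairs A and B alone and each library left out. Total-count scaling, list medians in pairs A and B alone and uninduced list medians without 1 library were added after the data were seen. The scripts were tested on simulated data.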

Additional observations from a re-analysis of the deposited data

How the results depend on the processing

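Between the induced populations 2 genes were called, and 0 in the uninduced contrast and in the difference of the contrasts. Without the replicate block, and with DESeq2 without the block, the induced count was 0, and with at least 10 counts in every library or total-count scaling it was also 0. With the 6 induced libraries alone it was 1 and with DESeq2 and the block 4. With no filter beyond 1 count the 3 counts were 38, 39 and 9, over a larger number of features tested, and with pairs A and B alone 13, 7 and 6. Leaving out 1 library gave 0 to 14 induced, 0 to 3 uninduced and 0 to 2 difference calls. The 14 came without the induced NLS-N-VEGF library of pair C, and the 3 without the uninduced one. The count was 2 or 3 in 4 of the 12 fits. The construct row is among those counted wherever it passed, as given next. In edgeR the block changed no other call.

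The construct's log2 difference of −1.23 passed the threshold at −1.26 with DESeq2 and the block, −1.21 without the filter and −1.59 with pairs A and B alone. It ranged from −1.64 to −1.02 when 1 library was left out, passing without the induced NLS-N-VEGF library of pair C and without the uninduced N-VEGF library of pair A or C. At 10 counts in every library it was not tested. Of 1272 log2 differences of 58 named genes under alternatives, 1271 kept their sign. Most of these genes were chosen by their p in the main fit, and the alternatives reuse its libraries. The kept signs were therefore largely set by the choice of genes and are no independent evidence. Lum went from 1.74 to −0.49 without the induced N-VEGF library of pair C, and to 2.05 without that of pair B, at counts near 0. Adgrg1 ranged from −1.29 to −0.85 and Heph from −0.80 to −0.62.

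Of 27 list medians, 13 had the same sign in 10 alternatives. Sterol and fatty acid genes ranged from 0.10 to 0.20, HIF targets outside glycolysis from 0.04 to 0.12 and ribosomal proteins from −0.12 to −0.05. The median of all features was 0.0113 with total-count scaling. With no dox and without the uninduced N-VEGF library of pair A, added after the data were seen, the medians of these 3 lists were −0.04, 0.04 and 0.02. The cause of these changes was not tested.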

Other observations

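Several genes differed between the induced populations in pairs A and B, and had the opposite direction in pair C. They were chosen after their values were seen, from those called when the induced NLS-N-VEGF library of pair C was left out. Gm773 was at 9.16 and 10.5 CPM against 2.50 and 2.77 in pairs A and B, and at 6.04 against 8.91 in pair C. Its uninduced levels in pairs A and B were 2.64 to 2.71 CPM in both populations. Ablim1, an actin-binding protein, was at 6.96 and 7.73 CPM against 18.7 and 16.3 in pairs A and B, and at 11.3 against 10.04 in pair C. Txnip, which binds thioredoxin and limits glucose uptake, was at 19.9 and 14.7 CPM against 37.0 and 26.1, and at 7.93 against 6.56 in pair C. Without dox Txnip was at 59.1 and 58.2 CPM against 62.7 and 62.5 in pairs A and B. Cemip, a hyaluronan-degrading protein, was at 48.7 and 46.2 CPM against 75.1 and 72.3, and at 28.2 against 17.01 in pair C.

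Over all 12 libraries the adjusted p of these 4 genes in edgeR lay between 0.981 and 0.992 in the induced contrast with the main filter. With no filter beyond 1 count, Gm773 (8.44e-08), Ablim1 (4.89e-05) and Txnip (0.0016) passed, and Cemip did not. The differences between the induced and between the uninduced populations, which share no library, correlated across 12059 features at Pearson's 0.12 and Spearman's 0.17, as a description over genes, which are not independent. Of 35 features at an unadjusted p under 0.05 in both contrasts, 27 had the same sign.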
